A study of Mus musculus with 12 samples.

Results

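The genes described here encode the inhibitory checkpoint receptors of T cells and the receptors of the CD28 family, 10 in number of the 47359 gene rows measured. They were chosen by name: 6 inhibitory receptors (Ctla4, Pdcd1, Lag3, Havcr2, Tigit and Btla), 2 inhibitory ligands (Cd200 and Cd274) and 2 costimulatory receptors (Icos and Cd28). All 10 were found under these symbols and all 10 passed the filter on low counts. The 10 genes and the related gene lists below were chosen with earlier results of these data known. Their counts beside those of all genes are therefore descriptive and not a test of the sets. RNA was sequenced from TH17 cells, helper T cells that make IL-17, after transfer into RAG2-/- mice and recovery from the central nervous system (CNS) when disease was at its peak. RAG2-/- hosts lack T and B lymphocytes but keep myeloid and natural killer (NK) cells. The disease, experimental autoimmune encephalomyelitis, is an autoimmune attack on myelin used to model multiple sclerosis. The donor genotypes were labelled 2D2-WT and 2D2-IL-17A/F-DKO. By these labels both bear the 2D2 transgene, which encodes a T cell receptor specific for a myelin protein, and the second lacks both Il17a and Il17f. Cells were sorted as CXCR6+ or SLAMF6+, 1000 living cells per library, giving 5 libraries of each WT subset and 1 of each DKO subset. The labels do not say whether replicates were separate animals, so a p reflects the spread among these libraries alone, which may be technical. Each DKO group is a single library, assumed in the tests to vary like the WT libraries.

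T cell activation needs a signal from the antigen receptor and a costimulatory signal, for which CD28 and ICOS bind CD80/CD86 and ICOS ligand on the antigen-presenting cell. CTLA-4, PD-1 and BTLA are inhibitory relatives that appear on activated T cells, bind CD80/CD86, PD-L1/PD-L2 and HVEM, and dampen receptor signalling. LAG-3, TIM-3 (Havcr2) and TIGIT belong to other families and are co-expressed with PD-1 on chronically stimulated cells, while CD200 and PD-L1 (Cd274) are ligands that restrain the cells that bear their receptors.

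Promoter windows, the 250 bases before the RefSeq start site, are shown for 4 genes with contrasting values below: Ctla4, Pdcd1 and Cd200, which were far lower in the libraries labelled DKO, and Tigit, which was not. They come from RefSeq (GRCm38.p6), run 5′ to 3′ on the gene's strand, and capitals mark GGAAA, the core of NFAT sites, on either strand. The windows are Ctla4 at chr1:60908775-60909024 (+), Pdcd1 at chr1:94052554-94052803 (-), Tigit at chr16:43664185-43664434 (-) and Cd200 at chr16:45409054-45409303 (-).
Ctla4: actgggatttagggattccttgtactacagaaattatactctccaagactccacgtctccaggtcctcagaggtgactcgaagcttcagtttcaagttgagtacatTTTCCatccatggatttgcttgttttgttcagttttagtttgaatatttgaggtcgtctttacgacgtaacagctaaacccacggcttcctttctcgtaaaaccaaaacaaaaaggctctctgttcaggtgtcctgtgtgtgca
Pdcd1: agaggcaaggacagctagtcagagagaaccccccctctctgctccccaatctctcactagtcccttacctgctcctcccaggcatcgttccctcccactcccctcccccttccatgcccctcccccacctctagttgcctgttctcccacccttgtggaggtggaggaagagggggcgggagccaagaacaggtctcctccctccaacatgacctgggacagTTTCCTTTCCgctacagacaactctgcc
Tigit: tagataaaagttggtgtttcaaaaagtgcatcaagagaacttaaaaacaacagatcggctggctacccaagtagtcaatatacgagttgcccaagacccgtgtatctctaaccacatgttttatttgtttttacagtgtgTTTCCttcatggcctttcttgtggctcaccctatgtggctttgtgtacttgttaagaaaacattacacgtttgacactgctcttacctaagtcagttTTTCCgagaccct
Cd200: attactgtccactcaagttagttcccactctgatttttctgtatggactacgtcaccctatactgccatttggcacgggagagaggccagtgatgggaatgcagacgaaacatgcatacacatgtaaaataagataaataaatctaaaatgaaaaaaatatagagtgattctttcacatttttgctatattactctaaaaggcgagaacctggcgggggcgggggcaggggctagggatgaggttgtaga
Searched on both strands, GGAAA occurred in 1 place for Ctla4, at -144 to -140 counted back from the start site. Pdcd1 held 2 adjoining matches that did not overlap (-28 to -24 and -23 to -19), Tigit held 2 (-110 to -106 and -13 to -9), and Cd200 held 0. This core is common: 55.7% of 32536 windows of this length held it. TGANTCA, the AP-1 motif, was found in 0 of these 4 windows (6.73% of all windows held it), as was AAAGGTCA, an NR4A half-site with an A-rich start (1.35%). Of the 10 genes, 7 had a RefSeq promoter entry. These matches describe letters only, and factor binding was not measured.

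The libraries held 6818658 to 11635037 counts. Il17a averaged 345 ± 104 CPM (counts scaled to the library total and expressed per 1000000; mean ± SD, n = 5) in WT CXCR6+. In WT SLAMF6+ it averaged 339 ± 85.8 CPM, and the libraries labelled DKO had 0 (CXCR6+) and 3 counts (SLAMF6+). Il17f had 1 count in each of them. Of 10 T cell identity genes, each was detected in every group. The shares of all tested genes called higher and lower were 12.8% and 15.9% in DKO CXCR6+ and 13.5% and 17.5% in DKO SLAMF6+. Of the 10, 5 were higher and 2 lower in each library labelled DKO. The lower pair were the receptor constant segments Trac (2610 ± 564 CPM in WT CXCR6+ and 542.5 CPM in DKO CXCR6+) and Trbc2 (23251 ± 4278 and 1797 CPM), which brought the sum of the 10 genes to 7039 and 8039 CPM in the DKO libraries against 22022 to 39358 CPM in WT. The labelled receptor was not the main one in the libraries labelled DKO: Trbv16, the segment of the 2D2 β chain, made up at least 99.6% of Trbv counts in WT but 9.96% and 6.51% in DKO CXCR6+ and SLAMF6+. Xist was at 0 in both and Ddx3y at 36.3 and 36.1 CPM, the reverse of WT, in which Ddx3y was at 0. Sex, receptor use and genotype therefore cannot be told apart in any DKO value below. The sort markers separated the groups only in part. Cxcr6 overlapped between the WT subsets (4.34 to 42.9 CPM in CXCR6+, 11.4 to 19.1 CPM in SLAMF6+, log2 0.71, adjusted p 0.251 in edgeR), and WT CXCR6+ replicate 3 lay under every SLAMF6+ library. Slamf6 did not overlap (1.69 to 5.02 CPM in CXCR6+ and 5.90 to 10.98 CPM in SLAMF6+, adjusted p 0.0047). The libraries labelled DKO held more of both than any WT library: Cxcr6 at 382 CPM and Slamf6 at 75.8 CPM in the CXCR6+ one, and Cxcr6 at 162 CPM and Slamf6 at 259 CPM in the SLAMF6+ one. Subset names therefore stand for the labelled sort.

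Between the genes, levels were compared per length, as CPM per kb of the longest annotated transcript. Cd200 had the highest level in both WT subsets, at 301 ± 20.2 CPM per kb in CXCR6+ and 472 ± 28.9 in SLAMF6+ (SD, n = 5 each). Ctla4 (113 ± 15.9) and Lag3 (106 ± 28.8) followed in WT CXCR6+ and overlapped each other. Next came Pdcd1 (51.0 ± 15.0), Tigit (50.6 ± 5.43), Btla (50.2 ± 1.13) and Cd28 (41.5 ± 9.38), each overlapping its neighbour in this order. Icos (15.7 ± 2.04), Cd274 (7.41 ± 0.79) and Havcr2 (2.19 ± 1.33) were lowest and each was separate from the next. In WT SLAMF6+ Lag3 (93.9 ± 12.01), Ctla4 (93.0 ± 11.3) and Tigit (84.6 ± 9.01) formed 1 overlapping run, and Cd28 (45.2 ± 2.66), Pdcd1 (42.2 ± 2.53) and Btla (39.4 ± 4.69) another. Below them lay Icos (25.2 ± 1.36), Cd274 (6.35 ± 0.972) and Havcr2 (1.40 ± 0.436). In the libraries labelled DKO the order was different at the top: Tigit (74.7 and 91.5 CPM per kb in CXCR6+ and SLAMF6+), Cd28 (31.2 and 29.3) and Icos (16.9 and 23.0) led. Cd200, first in WT, was 8th in DKO CXCR6+ (2.56) and 4th in DKO SLAMF6+ (17.3). Counted over the union of exons, neighbours exchanged places (Ctla4 with Lag3 in WT CXCR6+, for example) but Cd200 stayed first in both WT subsets and Tigit first in both libraries labelled DKO.

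**Figure D1:**
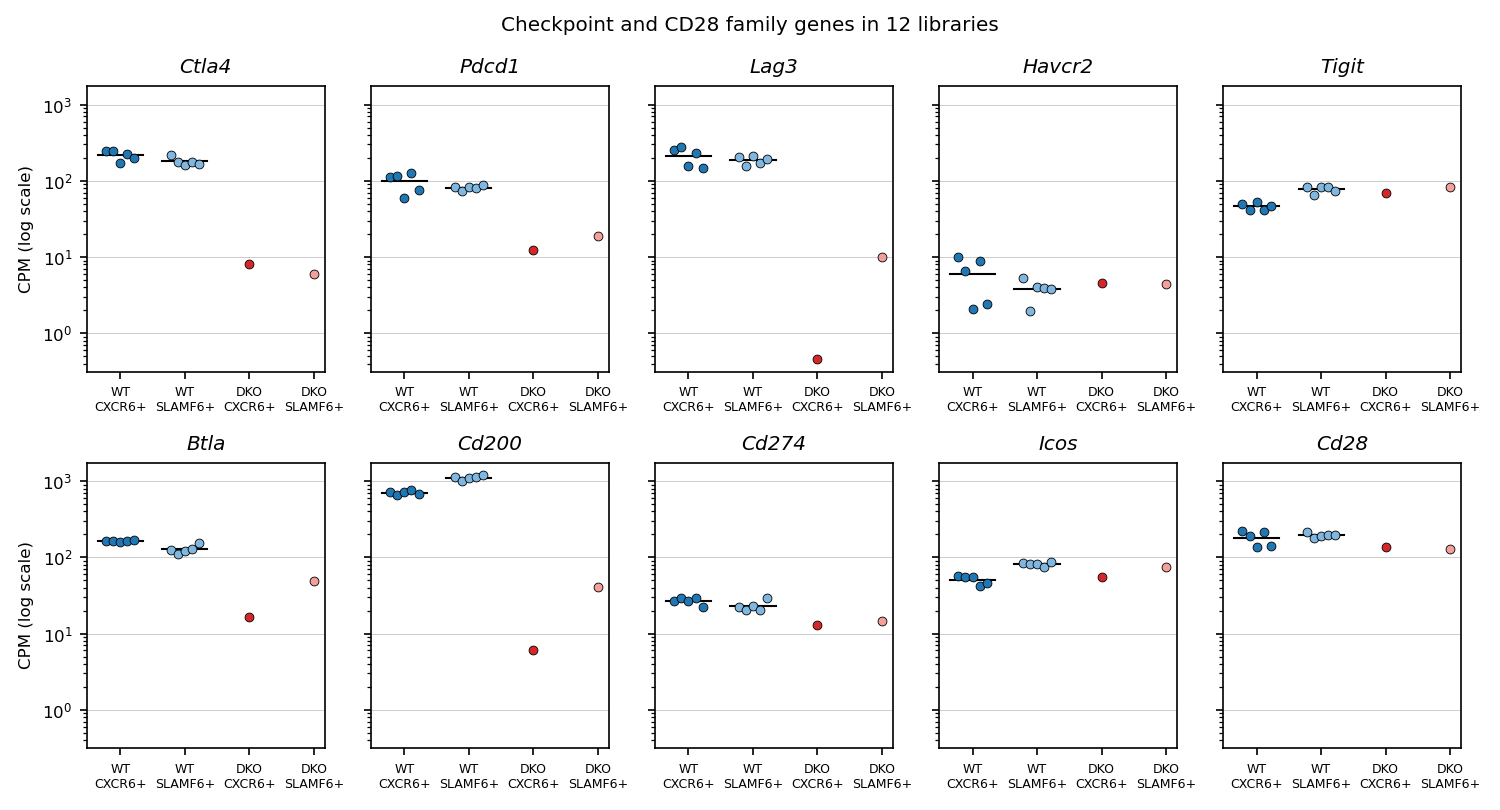
CPM of each of the 10 genes (log axis, shared between panels) in the 12 libraries; points are libraries and horizontal lines are means of the 5 WT libraries of a subset. Cd200, Lag3, Ctla4, Btla and Pdcd1 are lower by the most in both libraries labelled DKO, and Cd274 also lies under every WT point of the subset. Tigit, Icos, Havcr2 and Cd28 lie closer to the WT points. Of these, Tigit is above all of them in DKO CXCR6+. Cd28, and Icos by a hair, are under all of them in DKO SLAMF6+.

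The WT comparison asked how CXCR6+ and SLAMF6+ TH17 cells of the same genotype differ. Of the 10 genes, 1 was higher in CXCR6+ (Btla) and 3 were lower (Tigit, Icos and Cd200), the Tigit difference changing sign with offsets for transcript length and GC content. The differences were 1.27 to 1.67-fold. Over all 21565 tested genes, 15.6% were higher and 17.7% lower (edgeR's quasi-likelihood test, Benjamini-Hochberg adjusted p under 0.05), so 4 of 10 is close to the share among all genes. The same 4 genes were those whose CPM did not overlap between the 5 and 5 libraries, which held for 27.8% of all tested genes. The median log2 fold change was 0.20 over the 10 genes and 0.13 over all tested genes. RNA composition moved with the sort: mitochondrial genes took 12.9 to 17.6% of counts in WT CXCR6+ and 2.20 to 5.24% in WT SLAMF6+, and ribosomal protein genes 9.46 to 10.8% and 18.8 to 20.1%. With these genes and the receptor segments left out of the library size, 4 of the 10 genes were again called.

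The DKO comparison asked how the library labelled DKO differs from the WT libraries sorted on the same marker, with sex and receptor use differing as well. In CXCR6+, 6 of the 10 genes were lower in the library labelled DKO (Ctla4, Pdcd1, Lag3, Btla, Cd200 and Cd274), between 2.07-fold and 447-fold, and 1 was higher (Tigit, 1.48-fold). Over all tested genes 15.9% were lower and 12.8% higher. In SLAMF6+ the same 6 genes were lower, between 1.56-fold and 30.2-fold, and 0 were higher, against 17.5% and 13.5% of all tested genes. The Cd274 call in SLAMF6+ was marginal. Havcr2, Icos and Cd28 passed the test in neither subset. The median log2 fold change of the 10 genes was -2.03 in CXCR6+ and -1.01 in SLAMF6+, against -0.22 and -0.05 over all tested genes. The DKO value lay outside the range of the 5 WT libraries for 7 genes in CXCR6+ (57.7% of all tested genes) and 8 in SLAMF6+ (66% of all tested genes).

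**Figure D2:**
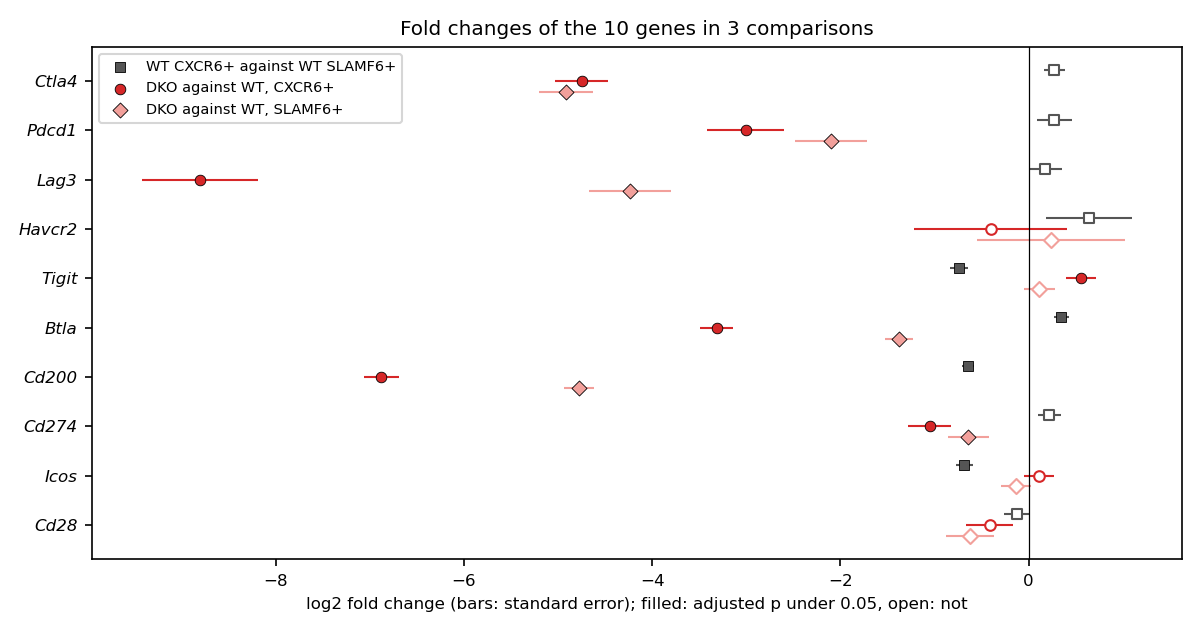
Log2 fold changes of the 10 genes (points) with their standard errors (bars) in 3 comparisons, from the edgeR fit over all genes; filled points passed an adjusted p of 0.05. The DKO values of Lag3, Cd200, Ctla4, Btla and Pdcd1 lie far to the left of 0 and the WT subset differences within 1 log2 unit of it; Tigit's WT difference changes sign with offsets for transcript length and GC content.

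Other cells and cell states moved with the DKO libraries. In bulk libraries fewer cells of a type and less RNA per cell cannot be told apart. For the counts below, the shares of all tested genes were 12.8% higher and 15.9% lower in DKO CXCR6+. In DKO SLAMF6+ they were 13.5% and 17.5%. Erythroid markers summed to 143738 CPM in DKO SLAMF6+ (5 of 5 higher than in WT; haemoglobin took 11.9% of its counts) and to at most 3.59 CPM in every other library. Myeloid and microglia markers summed to 944 and 118 CPM in DKO CXCR6+ and SLAMF6+ against 8.80 to 35.1 CPM in WT (of 11 tested, 3 were higher and 3 lower in CXCR6+, 7 higher and 2 lower in SLAMF6+), with S100a8 highest in CXCR6+ (498 CPM) and at 0 in all WT libraries. Regulatory T cell markers summed to 730 and 479 CPM against 1703 to 2558 in WT (of 8 tested, 2 higher and 3 lower in CXCR6+, 3 and 4 in SLAMF6+). Il2ra, the interleukin-2 receptor α chain, fell to 23.0 and 14.6 CPM from 952 ± 71.0 and 807 ± 25.5 CPM, and Foxp3, the defining gene, stood at 0 and 5.36 CPM against 0.195 ± 0.143 and 0.0676 ± 0.0948 in WT. Follicular helper markers summed to 42.2 and 142 CPM against 266 to 352 in WT (of 6 tested, 0 higher and 2 lower in CXCR6+, 2 and 1 in SLAMF6+), of which Il21 fell to 0 and 3 counts while Cxcr5 stood at 0 and 30.0 CPM. CD8 and NK markers summed to 269 and 244 CPM against 14.1 to 44.3 (of 7 tested, 3 higher and 1 lower in CXCR6+, 6 and 1 in SLAMF6+). Dendritic cell and MHC class II markers summed to 230.4 and 1301 CPM against 84.6 to 137 CPM in WT CXCR6+ and 256 to 320.1 CPM in WT SLAMF6+. Of 7 tested, 4 were higher and 1 lower in DKO CXCR6+, and 5 and 0 in DKO SLAMF6+. B cell markers summed to 129.7 and 135 CPM against 5.67 to 11.2 CPM in WT CXCR6+ and 14.0 to 104 CPM in WT SLAMF6+, nearly all of it Ighm (124 and 134 CPM), with Ms4a1 at 0 in both libraries labelled DKO; of 3 tested, 2 were higher in DKO CXCR6+ and 0 in DKO SLAMF6+. Neuron markers summed to at most 3.38 CPM in every library. The part of these cells in the results was not tested. With mitochondrial, ribosomal protein, receptor and haemoglobin genes left out of the library size, 7 and 6 of the 10 genes were again called, with log2 values for Cd200 of -6.91 and -4.80.

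Among the inhibitory receptors, Ctla4 (chromosome 1, 60887000 to 60915832 in GRCm38, + strand) encodes the receptor that competes with CD28 for CD80 and CD86. It stood at 243, 247, 173, 224 and 201 CPM in WT CXCR6+ replicates 1 to 5 and at 218, 174, 163, 177 and 167 CPM in WT SLAMF6+. The library labelled DKO held 8.09 CPM in CXCR6+ (70 counts, 95% Poisson interval 6.31 to 10.2 CPM) and 5.94 CPM in SLAMF6+ (41 counts, 4.26 to 8.05). Such intervals cover counting error only. Both DKO values were far under every WT value, 26.8-fold lower in CXCR6+ (log2 -4.75, SE 0.28, adjusted p 7.6e-07 in edgeR's quasi-likelihood test) and 30.2-fold lower in SLAMF6+ (log2 -4.92, SE 0.29, adjusted p 7.9e-07). The WT subsets overlapped and their difference did not pass (log2 0.28, SE 0.11, adjusted p 0.0825). It passed without WT CXCR6+ replicate 3 (0.35, adjusted p 0.0213) or without WT SLAMF6+ replicate 1 (0.35, adjusted p 0.0283). A processed pseudogene, Rpl18-ps1, lies inside Ctla4 on the same strand and held 1738 counts in the table beside 18630 of Ctla4.

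Pdcd1 (chromosome 1, 94038305 to 94052553, - strand) encodes PD-1, which recruits phosphatases to the engaged receptor. Its values were 114, 116, 60.1, 127 and 75.3 CPM in WT CXCR6+ and 82.8, 74.0, 82.2, 80.4 and 87.4 CPM in WT SLAMF6+. The WT CXCR6+ libraries spanned the SLAMF6+ values on both sides, and the difference did not pass (log2 0.27, SE 0.18, adjusted p 0.27). It passed without WT CXCR6+ replicate 3 (0.41, adjusted p 0.0413). The DKO values were 12.3 CPM in CXCR6+ (106 counts) and 19.0 CPM in SLAMF6+ (131 counts), 8.02-fold (log2 -3.004, SE 0.41, adjusted p 0.00023) and 4.29-fold lower (log2 -2.10, SE 0.38, adjusted p 0.0016; edgeR).

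Lag3 (chromosome 6, 124904361 to 124911705, - strand), which encodes a CD4-like receptor for MHC class II, showed the largest fold of the 10 genes in DKO CXCR6+. It stood at 252, 276, 156, 232 and 148 CPM in WT CXCR6+ and at 207, 155, 213, 173 and 191 CPM in WT SLAMF6+. The WT groups overlapped (log2 0.18, SE 0.18, adjusted p 0.465). The DKO CXCR6+ library held 4 counts (0.462 CPM, 95% Poisson interval 0.126 to 1.18), 447-fold lower (log2 -8.80, SE 0.62, adjusted p 2.2e-06 in edgeR). In DKO SLAMF6+ there were 69 counts (9.99 CPM, 7.77 to 12.6), 18.8-fold lower (log2 -4.23, SE 0.43, adjusted p 3.2e-05). The fold in CXCR6+ rests on those 4 counts.

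Havcr2 (chromosome 11, 46454935 to 46481255, + strand), the TIM-3 gene, was the least abundant of the 10 in WT. It ranged from 2.06 to 9.89 CPM in WT CXCR6+ and from 1.97 to 5.27 CPM in WT SLAMF6+ (14 to 90 counts), and stood at 4.51 and 4.49 CPM in the DKO libraries (39 and 31 counts). All groups overlapped, and no difference passed: log2 0.65 (SE 0.46) between the WT subsets, -0.40 (SE 0.81) for DKO in CXCR6+ and 0.24 (SE 0.78) in SLAMF6+, with edgeR adjusted p of 0.296, 0.758 and 0.867. The WT CXCR6+ libraries differed among themselves by more than the subsets did.

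Tigit (chromosome 16, 43648867 to 43664146, - strand) encodes an inhibitory receptor that competes with the activating receptor CD226 for nectin-family ligands. Its values were 49.5, 41.2, 52.8, 41.8 and 47.4 CPM in WT CXCR6+ and 82.0, 64.9, 83.6, 84.3 and 74.1 CPM in WT SLAMF6+. The groups did not overlap, and WT CXCR6+ was 1.67-fold lower (log2 -0.74, SE 0.10, adjusted p 0.00014 in edgeR). Tigit has the shortest transcript of the 10 genes, 919 nt, and with offsets for transcript length and GC content the difference became 0.10 (adjusted p 0.453). The DKO libraries held 68.7 CPM in CXCR6+ (594 counts) and 84.1 CPM in SLAMF6+ (581 counts). In CXCR6+ that was above every WT library, 1.48-fold higher (log2 0.56, SE 0.16, adjusted p 0.0215), a call lost when only the 2 groups compared entered the fit (0.57, adjusted p 0.0589). In SLAMF6+ the value lay within the WT range (log2 0.11, SE 0.16, adjusted p 0.638). There the difference passed with a filter of at least 10 CPM in 5 libraries (0.42, adjusted p 0.045) and with the offsets (0.82, adjusted p 0.0015).

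Btla (chromosome 16, 45224315 to 45257670, + strand), whose product binds HVEM, was the only inhibitory receptor called higher in WT CXCR6+. It stood at 162, 162, 158, 166 and 167 CPM there and at 126, 111, 121, 130.3 and 152 CPM in WT SLAMF6+. The lowest CXCR6+ library was above the highest SLAMF6+ library, and the difference was 1.27-fold (log2 0.35, SE 0.08, adjusted p 0.0048 in edgeR). The DKO values were 16.4 CPM in CXCR6+ (142 counts) and 49.4 CPM in SLAMF6+ (341 counts). They were 9.93-fold (log2 -3.31, SE 0.17, adjusted p 3.5e-07) and 2.59-fold lower (log2 -1.37, SE 0.15, adjusted p 4.9e-05).

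Of the ligands, Cd200 (chromosome 16, 45382135 to 45409053, - strand) encodes a surface protein that restrains myeloid cells bearing the CD200 receptor. Its values were 722, 651, 717, 773 and 673 CPM in WT CXCR6+ and 1117, 1006, 1086, 1145 and 1186 CPM in WT SLAMF6+. The subsets were well apart, with WT CXCR6+ 1.57-fold lower (log2 -0.65, SE 0.06, adjusted p 2.2e-05 in edgeR). This difference shrank to -0.18 (adjusted p 0.0239) with offsets for transcript length and GC content and kept its call. The DKO CXCR6+ library held 6.01 CPM (52 counts, 95% Poisson interval 4.49 to 7.88) and the DKO SLAMF6+ library 40.5 CPM (280 counts, 35.9 to 45.6). They were 117-fold (log2 -6.88, SE 0.18, adjusted p 9.4e-09) and 27.3-fold lower than WT (log2 -4.77, SE 0.16, adjusted p 3.4e-08).

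Cd274 (chromosome 19, 29367455 to 29388095, + strand) encodes PD-L1, the ligand of PD-1. It ranged from 22.1 to 29.2 CPM in WT CXCR6+ and from 20.3 to 29.0 CPM in WT SLAMF6+, and the subsets overlapped (log2 0.22, SE 0.12, adjusted p 0.173 in edgeR). That difference passed without WT SLAMF6+ replicate 5 (0.32, adjusted p 0.0436). The DKO values were 12.9 CPM (112 counts) and 14.8 CPM (102 counts) in the CXCR6+ and SLAMF6+ subsets, both under every WT library of the subset. In CXCR6+ the fall was 2.07-fold (log2 -1.05, SE 0.23, adjusted p 0.0048). In SLAMF6+ it was 1.56-fold (log2 -0.64, SE 0.22, adjusted p 0.049), and leaving out WT CXCR6+ replicate 1, 2, 3 or 4 or WT SLAMF6+ replicate 1 or 3 ended the call (adjusted p 0.057 to 0.0713). An antisense gene model overlaps Cd274, and without strand its reads cannot be told apart. Pdcd1lg2, the gene of the other PD-1 ligand, PD-L2, fell as well, from 17.1 ± 2.74 to 3.93 CPM in the CXCR6+ and from 19.5 ± 3.19 to 2.61 CPM in the SLAMF6+ subset (adjusted p 0.0004 and 7.6e-05, log2 -2.12 and -2.90).

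Neither costimulatory receptor passed the test with the DKO label. Icos (chromosome 1, 60977927 to 61000320, + strand), the receptor for ICOS ligand and a member of the CD28 family, stood at 56.3, 55.4, 54.8, 41.5 and 46.3 CPM in WT CXCR6+. In WT SLAMF6+ it stood at 83.9, 80.9, 82.5, 74.5 and 86.1 CPM. The WT groups did not overlap, CXCR6+ being 1.60-fold lower (log2 -0.68, SE 0.09, adjusted p 0.00018 in edgeR; -0.31 and adjusted p 0.0374 with offsets for length and GC content). The DKO values were 54.9 CPM in CXCR6+ and 74.4 CPM in SLAMF6+ (475 and 514 counts), and neither differed from WT beyond the test's threshold (log2 0.11, SE 0.16, adjusted p 0.64, and -0.13, SE 0.16, adjusted p 0.566). The sign of the SLAMF6+ value turned with the 10 CPM filter (0.18) and with the offsets (0.37).

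Cd28 (chromosome 1, 60716800 to 60773359, + strand), the founding costimulatory receptor, lies in 1 stretch of the chromosome with Ctla4 and Icos. It stood at 220.1, 192, 135, 216 and 139.9 CPM in WT CXCR6+ and at 213, 182, 191, 198 and 198 CPM in WT SLAMF6+. The WT subsets overlapped (log2 -0.12, SE 0.14, adjusted p 0.53 in edgeR). The DKO CXCR6+ library held 136 CPM (1174 counts), inside the WT range (log2 -0.41, SE 0.25, adjusted p 0.272). The DKO SLAMF6+ library held 127 CPM (879 counts), under all 5 WT libraries, but the difference did not pass (log2 -0.63, SE 0.25, adjusted p 0.0872). It passed in 3 of 25 alternatives. These were the fit without WT CXCR6+ replicate 3 (-0.63), the fit of only the 2 groups compared (-0.61) and DESeq2's Wald test (-0.55).

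Ctla4 and Cd28 share ligands, so their ratio within a library was computed per kb, a choice made after the values were seen and given with no test. It was 2.48, 2.90, 2.89, 2.33 and 3.23 in WT CXCR6+ and 2.29, 2.15, 1.92, 2.01 and 1.90 in WT SLAMF6+. Every WT library thus held more Ctla4 than Cd28 per kb, and the 2 WT subsets did not overlap in the ratio although they did in Ctla4 and in Cd28. In the libraries labelled DKO the order was turned: the ratio was 0.134 in CXCR6+ and 0.105 in SLAMF6+, or 7.46 and 9.53 of Cd28 for each Ctla4.

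**Figure D3:**
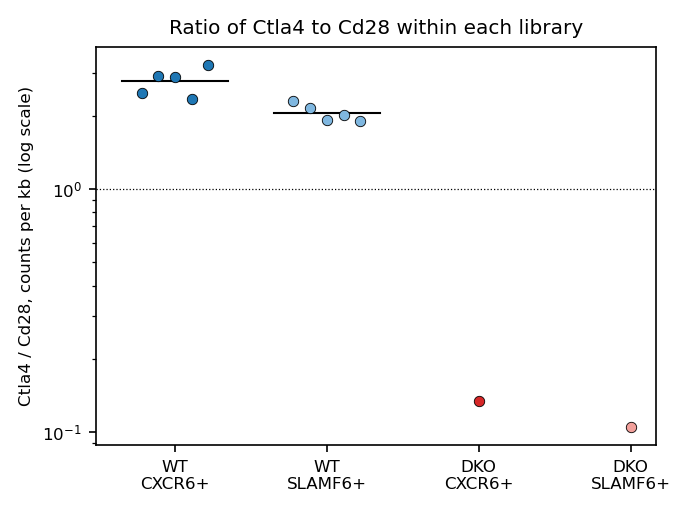
Ratio of Ctla4 to Cd28, each in counts per kb of its longest transcript (log axis), with 1 point for each library and lines at the means of the 5 WT libraries; the dotted line marks equal levels. The 10 WT points lie between 1.90 and 3.23 and the 2 DKO points at 0.134 and 0.105.

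Within WT CXCR6+ the libraries varied together in several genes. Replicates 3 and 5 held the 2 lowest values of Ctla4, Pdcd1, Lag3, Havcr2, Cd274 and Cd28. Tigit was highest in replicate 3, and Btla was lowest in replicate 3 and highest in replicate 5. Cxcr6 stood at 42.1, 42.9, 4.34, 19.8 and 22.4 CPM in replicates 1 to 5, lowest in replicate 3. Mitochondrial genes took 12.9, 15.5, 17.6, 14.2 and 17.3% of counts in the same order, highest in replicates 3 and 5. The part of the sort or of RNA composition in this spread was not tested. In WT SLAMF6+ the SD of Pdcd1 was 4.87 CPM against 29.0 CPM in WT CXCR6+, and that of Lag3 24.04 against 57.6 CPM.

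Whether the DKO difference itself differed between the subsets was tested with the interaction of genotype and subset. It passed for 3 of the 10 genes, Lag3 (log2 -4.57, SE 0.69, adjusted p 0.0034), Btla (-1.94, SE 0.20, adjusted p 0.0011) and Cd200 (-2.10, SE 0.18, adjusted p 0.00047), each lower in CXCR6+ than the SLAMF6+ difference would give. Over all tested genes 3.94% passed in this direction (edgeR). The Lag3 call was lost in limma-voom (-4.41, adjusted p 0.34). For Ctla4 (0.17, SE 0.32, adjusted p 0.88) and Pdcd1 (-0.90, SE 0.48, adjusted p 0.294) the interaction did not pass, which does not show that the 2 effects are alike. The sign for Ctla4 turned with the 10 CPM filter (-0.10) and with offsets for length and GC content (-0.29). Between the 2 DKO libraries, with no replicate and so no test, the same 3 genes were at least 2-fold lower in CXCR6+, as were 16.4% of all tested genes. The log2 ratios were -3.83 for Lag3 (95% counting interval -6.35 to -3.01), -2.702 for Cd200 (-3.21 to -2.32) and -1.57 for Btla (-1.88 to -1.30). The other 7 genes lay between -0.62 (Pdcd1) and 0.43 (Ctla4).

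Receptors outside the 10 genes that share ligands or the inhibitory role were mostly higher with the DKO label. Over all tested genes 12.8% were higher and 15.9% lower in CXCR6+, and 13.5% and 17.5% in SLAMF6+. Of 12 tested co-inhibitory and nectin-binding receptors, 9 were higher and 0 lower in DKO CXCR6+ (median log2 3.45, against -0.22 over all tested genes), and 8 were higher and 0 lower in DKO SLAMF6+ (median 3.97 against -0.05). Cd226, the activating partner of TIGIT, rose from 22.2 ± 2.67 to 205 CPM in CXCR6+ and from 32.2 ± 4.24 to 135 CPM in SLAMF6+ (log2 3.21 and 2.07, adjusted p 2.3e-07 and 5.3e-06 in edgeR). Cd96, another receptor of the nectin group, rose from 1.503 ± 0.896 to 169 CPM and from 1.49 ± 0.446 to 148 CPM (log2 6.81 and 6.64, adjusted p 1.2e-06 and 1.6e-06). Vsir, the gene of the checkpoint VISTA, rose from 30.9 ± 10.7 to 201 CPM and from 48.7 ± 2.90 to 175 CPM (log2 2.699 and 1.85). Lair1, a collagen receptor, rose in CXCR6+ from 1.03 ± 0.944 to 28.7 CPM (log2 4.78), and Klrg1, a receptor of terminally differentiated cells, went from 0 counts in WT SLAMF6+ to 19.7 CPM, at least 316-fold higher against a floor of 3 counts over the group. CD8 and NK markers, which share cell types with Klrg1, Cd96 and Cd160, rose beside them as given above, and their part was not tested. Between the WT subsets 1 of these 12 was higher in CXCR6+ (Cd5, log2 0.41) and 3 were lower (Cd226, Cd101 and Vsir, log2 -0.53, -1.18 and -0.66), of which Vsir lost its call in 9 of 25 alternatives and Cd226 in 1. That is close to the share among all tested genes, 15.6% higher and 17.7% lower.

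Binding partners of the 10 proteins, mostly ligands, moved both ways. Of 11 tested, 3 rose and 3 fell in DKO CXCR6+ (3 and 1 in limma-voom), and 2 rose and 3 fell in DKO SLAMF6+ (5 and 2 in limma-voom). Over all tested genes 12.8% rose and 15.9% fell in CXCR6+, and 13.5% and 17.5% in SLAMF6+. The list medians were -0.42 and 0.07 on the log2 scale, against -0.22 and -0.05 over all tested genes. These shares and medians are from edgeR. In limma-voom 4125 of all 21565 tested genes rose and 2433 fell in CXCR6+, and 4504 and 2772 in SLAMF6+. Icosl, the ICOS ligand, rose from 0.723 ± 0.334 and 0.940 ± 0.486 CPM to 7.40 and 7.39 CPM (log2 3.33 and 2.96), and Cd200r1, the CD200 receptor, to 20.9 and 12.7 CPM (log2 2.28 and 1.42). The Cd200r1 call in SLAMF6+ was lost in 12 of 23 alternatives (adjusted p up to 0.0865), most of them with a library left out. Beside Pdcd1lg2, Nectin2, a ligand of TIGIT and CD226, was at 0 counts in both libraries labelled DKO, at least 7.03-fold and 5.03-fold lower, calls that were lost in both subsets in limma-voom, with and without a random replicate block (adjusted p up to 0.183 and 0.195). Cd80, a ligand of CD28 and CTLA-4, fell in SLAMF6+ from 9.21 ± 1.84 to 1.59 CPM (log2 -2.52, adjusted p 0.0021). Lgals9, a ligand described for TIM-3, was the 1 of these genes called between the WT subsets, 67.6 ± 6.39 CPM in the CXCR6+ subset and 131 ± 15.8 CPM in the SLAMF6+ one (adjusted p 2e-05 in edgeR, log2 -0.96).

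Signalling partners of CD28 and the checkpoint receptors were higher more often than lower with the DKO label. Of 20 tested, 11 rose and 2 fell in CXCR6+, against 12.8% and 15.9% of all tested genes. In SLAMF6+ 9 rose and 1 fell, against 13.5% and 17.5%. The list medians were 0.65 and 0.42. With offsets for transcript length and GC content, 15 rose and 1 fell in SLAMF6+. Calls over all genes moved up with the offsets too, to 4544 higher and 2833 lower of 21565 tested. Ubash3a, a suppressor of receptor signalling, rose from 10.6 ± 3.97 to 223 CPM and from 20.9 ± 1.57 to 188 CPM (log2 4.39 and 3.17). Lck, the kinase that starts receptor signalling, rose from 424 ± 39.1 to 877 CPM and from 441 ± 39.4 to 974 CPM (log2 1.05 and 1.14), and Pik3ip1, an inhibitor of PI3 kinase, had log2 values of 1.88 and 1.46. Between the WT subsets 6 were higher and 4 lower in CXCR6+, led by Fyn, a receptor-proximal kinase (34.1 ± 2.68 against 15.6 ± 3.05 CPM, log2 1.12, adjusted p 6.8e-05 in edgeR). Among all tested genes 15.6% were higher and 17.7% lower. With the 10 CPM filter, 10 of 18 partners tested were higher and 2 lower. Calls over all genes were also more frequent with this filter, 2753 higher and 2387 lower of 8007 tested.

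Transcription factors linked to checkpoint expression moved both ways. Of 18 tested, 6 rose and 5 fell in DKO CXCR6+, and 9 rose and 5 fell in DKO SLAMF6+. In either direction 28.7% and 31.1% of all tested genes passed, and the list medians were 0.58 and 1.01 against -0.22 and -0.05 over all tested genes. Irf4, induced by receptor signalling, fell from 213 ± 13.0 to 5.20 CPM and from 243 ± 20.6 to 2.17 CPM (log2 -5.35 and -6.80, adjusted p 3.2e-08 and 3.4e-08 in edgeR). The 3 NR4A genes, which encode nuclear receptors induced by receptor signalling, fell in both subsets. Nr4a1 fell from 106 ± 21.3 to 7.63 CPM and from 117 ± 18.6 to 20.6 CPM (log2 -3.80 and -2.50), and Nr4a3 from 59.7 ± 15.8 to 3.24 CPM and from 40.6 ± 6.32 to 15.6 CPM (log2 -4.20 and -1.38). Nr4a2 had 3 counts in DKO CXCR6+, 138-fold lower (95% counting interval 47.3 to 671), and 0 counts in DKO SLAMF6+, at least 95.3-fold lower with 3 counts as the floor. Nfatc1, whose product binds the GGAAA core shown above, rose from 25.6 ± 1.07 to 53.2 CPM and from 17.9 ± 1.64 to 56.6 CPM (log2 1.06 and 1.66). Tcf7, a factor of stem-like T cells, rose from 34.8 ± 6.18 to 157 CPM and from 54.6 ± 4.41 to 228 CPM (log2 2.17 and 2.06). Between the WT subsets Nfatc1 was higher in CXCR6+ (log2 0.51, adjusted p 0.00057) and Batf lower (174 ± 23.8 against 289 ± 21.5 CPM, log2 -0.73). With the offsets the Batf difference did not pass (-0.14, adjusted p 0.252).

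Of 9 genes of the module of co-inhibitory genes induced by IL-27, 4 rose and 3 fell in each DKO comparison (28.7% and 31.1% of all tested genes passed in either direction), with medians of 0.78 and -0.37, or -0.33 with genes at 0 counts set to their bound. Il27ra, a chain of the IL-27 receptor, rose from 32.5 ± 4.09 to 141 CPM and from 33.1 ± 2.03 to 119 CPM (log2 2.12 and 1.85). Nt5e and Entpd1, which encode the ectoenzymes CD73 and CD39, rose to 34.2 and 46.0 CPM and to 25.2 and 35.2 CPM from WT means of at most 9.23 CPM. Procr, the endothelial protein C receptor, went from 25.5 ± 5.32 and 31.6 ± 3.55 CPM to 0 counts in both, at least 73.4-fold and 72.8-fold lower, and Gzmb, a cytotoxic protease, had log2 values of -3.56 and -4.08.

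**Figure D4:**
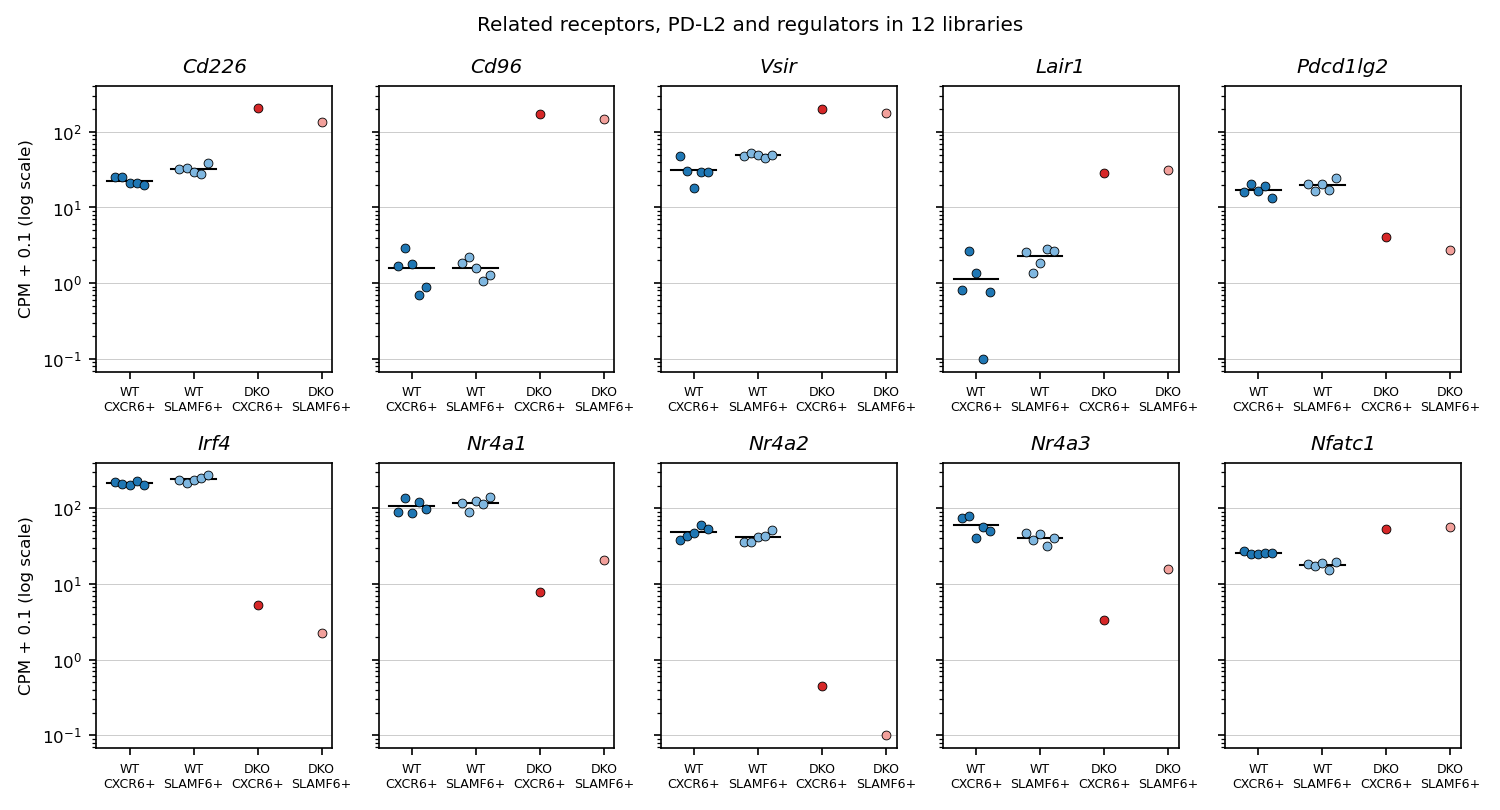
CPM (log axis, 0.1 added so that 0 can be drawn) of related receptors, PD-L2 and regulators in the 12 libraries, with lines at the means of the 5 WT libraries. Cd226, Cd96, Vsir, Lair1 and Nfatc1 are higher in both libraries labelled DKO, and Pdcd1lg2, Irf4 and the 3 Nr4a genes lower.

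For the 3 of the 10 genes with the highest mean CPM over the 12 libraries, not scaled to length (Cd200, Cd28 and Lag3), the 2 genes of most similar pattern were sought among 7314 genes. They had the smallest root mean square difference of centred log2 CPM over the 12 libraries. A constant was added to each CPM before the log, which shrinks differences at low CPM. For Cd200 they were Batf3 (0.238) and Stra6 (0.342), in log2 units. Batf3, a transcription factor gene, stood at 177 ± 30.4 CPM in WT CXCR6+, 313 ± 19.9 in WT SLAMF6+, and 0.462 and 7.82 CPM in DKO CXCR6+ and SLAMF6+. For Lag3 they were Cd81 (0.383) and Lif (0.423), and for Cd28 Slc38a10 (0.111) and Nfs1 (0.111).

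Which of the small WT differences passed varied with the scaling, filter and test. Ctla4 passed in 8 of 26 alternatives, with a log2 value of up to 0.82, and Tigit was the only called gene whose sign turned. Btla passed in 25 of 26, and Cd200 and Icos likewise, the exception being a threshold of at least 2-fold, which 0 of the 10 genes met. With DESeq2's size factors Ctla4 was 0.32 (adjusted p 0.0396).

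**Figure D5:**
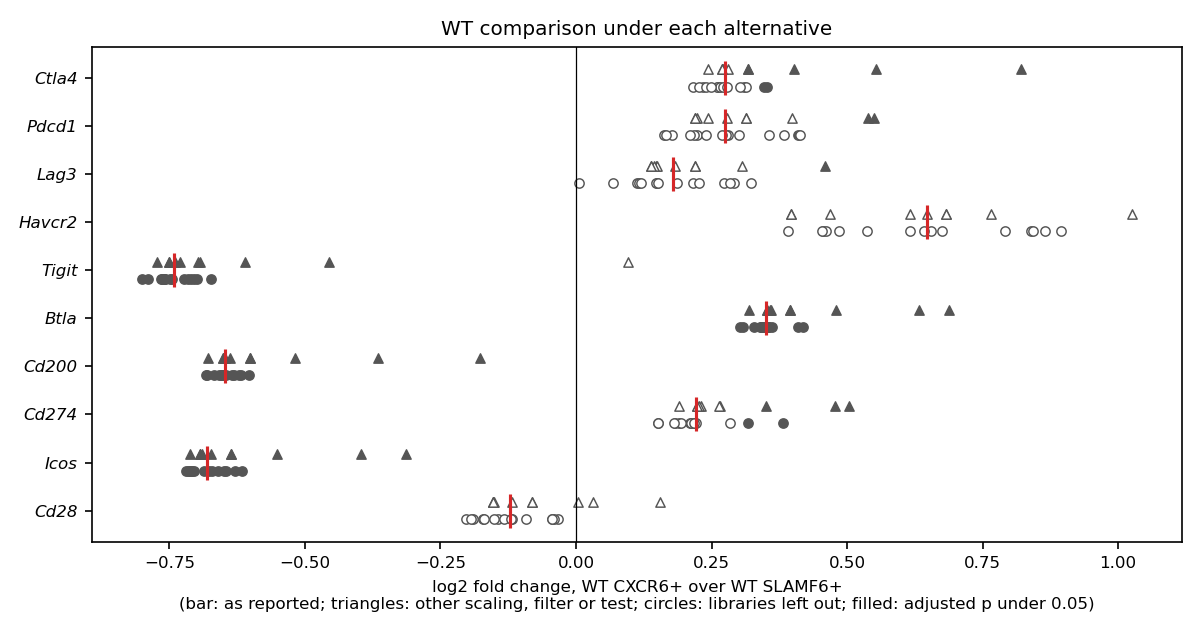
Log2 fold change of each gene between WT CXCR6+ and WT SLAMF6+ as reported (red bar), with another scaling, filter or test (triangles) and with libraries left out (circles); filled symbols passed an adjusted p of 0.05. Btla, Cd200 and Icos stay on 1 side of 0, and the 1 triangle of Tigit right of 0 (0.10) is the fit with offsets for transcript length and GC content.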

How the data were processed

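Expected counts, rounded to whole numbers for each gene symbol, are what the authors deposited; the submitters' processing notes name STAR 2.7.7a, RSEM 1.3.3 and mm10. Annotation and read filters: not given in the sources used here. Per the labels' protocols, 1000 sorted cells a library went through an adapted SMART-Seq2 procedure, which marks no strand. The members and gene lists were chosen with earlier results of these data known. From the expected counts, edgeR 4.0.16 (R 4.3.3) fitted all 4 groups of 12 libraries at once: TMM scaling, filterByExpr (21565 genes), no block, the quasi-likelihood test on 8 residual degrees of freedom, and Benjamini-Hochberg adjustment at 0.05. CPM use TMM-adjusted library totals. For the DKO pair, log2 ratios used a prior count of 2. Coordinates and lengths came from GENCODE M21 (41368 symbols matched). Named beside the members are genes of fixed lists past the threshold, up to 4 for each list and direction by adjusted p. One such gene is not reported here. Alternatives used DESeq2 1.42.0, limma 3.58.1 (voom), other filters, library sizes, offsets from a spline (5 degrees of freedom) on length and GC content, blocks, and libraries left out. The scripts were tested on simulated data. No 2 libraries of a group agreed within sampling noise. Poisson intervals and the floor of 3 counts cover counting error only.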

Additional observations from a re-analysis of the deposited data

Results flagged for a closer look

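In 20 groups of 5 WT libraries (10 genes in 2 subsets), a library was marked when its gap to the nearest other library was too large a part of the group's range, which chance does in about 1 in 20 groups. Ctla4 stood at 217.5 CPM in WT SLAMF6+ replicate 1, against 163 to 177 CPM in the other 4 libraries. Cd274 stood at 28.98 CPM in WT SLAMF6+ replicate 5, against 20.3 to 22.8 CPM in the other 4.

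The DKO difference itself differed between CXCR6+ and SLAMF6+ for 3 genes by the interaction of genotype and subset in edgeR. The log2 difference was -4.57 for Lag3, -1.94 for Btla and -2.10 for Cd200, each with 1 DKO library in a subset.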

How the results depend on the processing

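Of 1036 values of single genes under alternatives, 976 kept their direction and side of the threshold. The count of genes called between the WT subsets, 4, became 8 with a filter of at least 10 CPM in 5 libraries and 0 with a threshold of at least 2-fold, and was 4 to 6 with libraries left out. The share of all tested genes that was called rose with that filter too, 5140 of 8007 in place of 7179 of 21565. The counts for DKO in CXCR6+ (6 to 7), in SLAMF6+ (5 to 7), the interaction (2 to 3) and the DKO pair (3) stayed within 1.5 times. Signs turned for Tigit between the WT subsets (0.10 with offsets for length and GC content) and for Cd28 (0.16 with the 10 CPM filter, 0.032 with the offsets, 0.0039 with only the groups compared). They also turned for Icos in DKO SLAMF6+ (0.18 with the filter, 0.37 with the offsets). In the interaction they turned for Ctla4 (-0.10, -0.29) and Icos (-0.036, -0.15) under the same pair, for Cd28 (-0.058 with the filter) and for Tigit (-0.31 with the offsets). The cause was not tested. Cd274 in DKO SLAMF6+ lost its call in 18 of 25 alternatives (adjusted p 0.0235 to 0.395). The split of calls over all genes between the WT subsets, 3363 higher and 3816 lower, became 4029 and 2445 with the offsets; in DKO CXCR6+ it went from 2767 and 3432 to 4125 and 2433 in limma-voom and 3568 and 3026 with the offsets, and in DKO SLAMF6+ from 2913 and 3784 to 4504 and 2772 and to 4544 and 2833. The offsets moved the median of all genes from 0.13 to 0.28 between the WT subsets and from -0.22 to -0.06 in DKO CXCR6+, and the 10 CPM filter to 0.02 and -0.03. In the interaction the split went from 1372 and 849 to 747 and 896 with the offsets and 1025 and 1232 with the filter. The 2-fold threshold left 2841 of 7179 calls between the WT subsets.

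Deviations of same-numbered WT libraries correlated at -0.013 to 0.078 over 7876 genes, and those of differently numbered libraries at -0.175 to 0.131. Noise between libraries can hide a shared donor, so this cannot show whether the numbers pair the samples. With a fixed replicate block, 6943 genes passed between the WT subsets in place of 7179, and Ctla4 passed (0.27, adjusted p 0.0296). With a random replicate block in limma-voom, Lag3 lost its interaction (-4.41, adjusted p 0.335) and Cd274 its call in DKO SLAMF6+ (-0.63, adjusted p 0.0888). Depth limits the fold of Lag3 in DKO CXCR6+ (4 counts).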
